A study of Homo sapiens with 8 samples.

Results

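The class II and class IV histone deacetylases (HDACs) are encoded by 7 genes, whose membership is set by enzyme class, by name, with no threshold on a measured value. They are HDAC4, HDAC5, HDAC7 and HDAC9 (class IIa), HDAC6 and HDAC10 (class IIb) and HDAC11 (class IV). All 7 were among the 35238 genes of the count table, and all 7 were among the 15085 genes abundant enough to be tested. The libraries were bulk RNA sequencing of MP38, a human uveal melanoma (UM) cell line with mutant BAP1, in 4 groups of 2 libraries. Cells were treated for 24 h with romidepsin or quisinostat, both at 40 nM, or with mivebresib at 1200 nM, and control cells were kept in 0.1% DMSO. Romidepsin is a cyclic peptide that inhibits mainly class I HDACs, quisinostat is a hydroxamate that inhibits HDACs of several classes, and mivebresib inhibits the bromodomains of the BET proteins, which read acetylated histones. The labels gave the dose of DMSO for the control wells, and the study states the same final 0.1% DMSO for the drug wells. Each drug was compared with the same 2 control libraries. The comparisons asked how each drug changed the transcripts of these genes, and whether the drugs differed from each other. All groups were the same line, and the concentrations had been set by the study to change the cells' appearance without much cell death.

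Class IIa HDACs have little deacetylase activity of their own. They bind MEF2 transcription factors, bring corepressors with HDAC3 to MEF2 target genes, and leave the nucleus bound to 14-3-3 proteins once kinases have phosphorylated them. HDAC6 is a mainly cytoplasmic enzyme that deacetylates tubulin, HSP90 and cortactin and also binds ubiquitin, HDAC10 deacetylates acetylated polyamines, and HDAC11, the only class IV enzyme, removes fatty acyl groups from lysine.

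Total counts ran from 28483235 to 29359024 per library. The wells were set up in duplicate, so the p-values measure the spread between these wells. Over all genes the control pair differed more than the other pairs, with a chi-square per degree of freedom of 58.1 against 9.52 to 9.79. Of 7 melanocyte lineage markers, MLANA, PMEL, TYRP1, MITF and SOX10 had at least 1468 counts in every library, TYR had 42 to 111 and DCT had 0 to 5. Of 15 markers of fibroblasts, endothelial cells, leukocytes and epithelium, CD68 was the most abundant with 1699 to 2307 counts, COL1A1 had 28 to 327, CDH5, CD3E and KRT5 had 0 in every library, and LUM had at most 1.

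The start sites of 4 genes are shown first, because these genes had a change with at least 1 drug that held under all alternative settings tried, downwards for HDAC4, HDAC7 and HDAC9 and upwards for HDAC6. RefSeq promoter windows (GRCh38.p14, 250 bases before to 50 after a start site) matched 6 of the 7 genes, all but HDAC5. Each line gives the 100 bases before the first listed start site and the 10 bases from it, 5′ to 3′ on the strand of the gene. Capitals mark a match to GGGCGG on either strand, to CACGTG, or to a MEF2 site.
HDAC4 (chr2:239401640-239401749, minus strand): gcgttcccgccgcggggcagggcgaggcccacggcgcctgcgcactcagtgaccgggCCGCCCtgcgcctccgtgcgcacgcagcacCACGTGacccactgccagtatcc
HDAC7 (chr12:47819894-47820003, minus strand): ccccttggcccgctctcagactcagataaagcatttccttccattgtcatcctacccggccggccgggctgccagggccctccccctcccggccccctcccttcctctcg
HDAC9 (chr7:18086725-18086834, plus strand): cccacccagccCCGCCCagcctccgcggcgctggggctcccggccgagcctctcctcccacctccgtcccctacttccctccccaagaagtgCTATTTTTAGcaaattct
HDAC6 (chrX:48801298-48801407, plus strand): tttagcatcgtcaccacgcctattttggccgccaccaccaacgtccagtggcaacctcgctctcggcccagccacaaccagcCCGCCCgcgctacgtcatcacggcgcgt

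The HDAC9 line holds a MEF2 site, CTATTTTTAG, from position -8 to position 2, counting the start site as 1 and the base before it as -1. A MEF2 site was found in 3.01% of all 34796 RefSeq windows and in no other window of the 6 genes. HDAC4 held CACGTG, the E-box bound by MITF, MYC and related factors, from position -13 to -8, and 7.2% of all windows held one. GGGCGG, the core of the GC box, occurred in 44.9% of all windows, in the first windows of HDAC4, HDAC9, HDAC6, HDAC10 and HDAC11 and not in that of HDAC7. The window of HDAC11 held 5 matches, of which 3 overlapped by 1 base each from position -16 to -1, and that of HDAC10 held 4. HDAC4, HDAC9 and HDAC6 had further windows at later start sites. Windows 2 and 3 of HDAC6 held 4 and 2 matches to GGGCGG, and the later windows of HDAC4 and HDAC9 held none. Which start sites MP38 cells use was not measured. No window of the 6 genes held TGACGTCA, which 1.84% of all windows did, or TATAAA on either strand, which 11.6% did. The matches are letters in a window and no binding was measured.

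**Figure D1:**
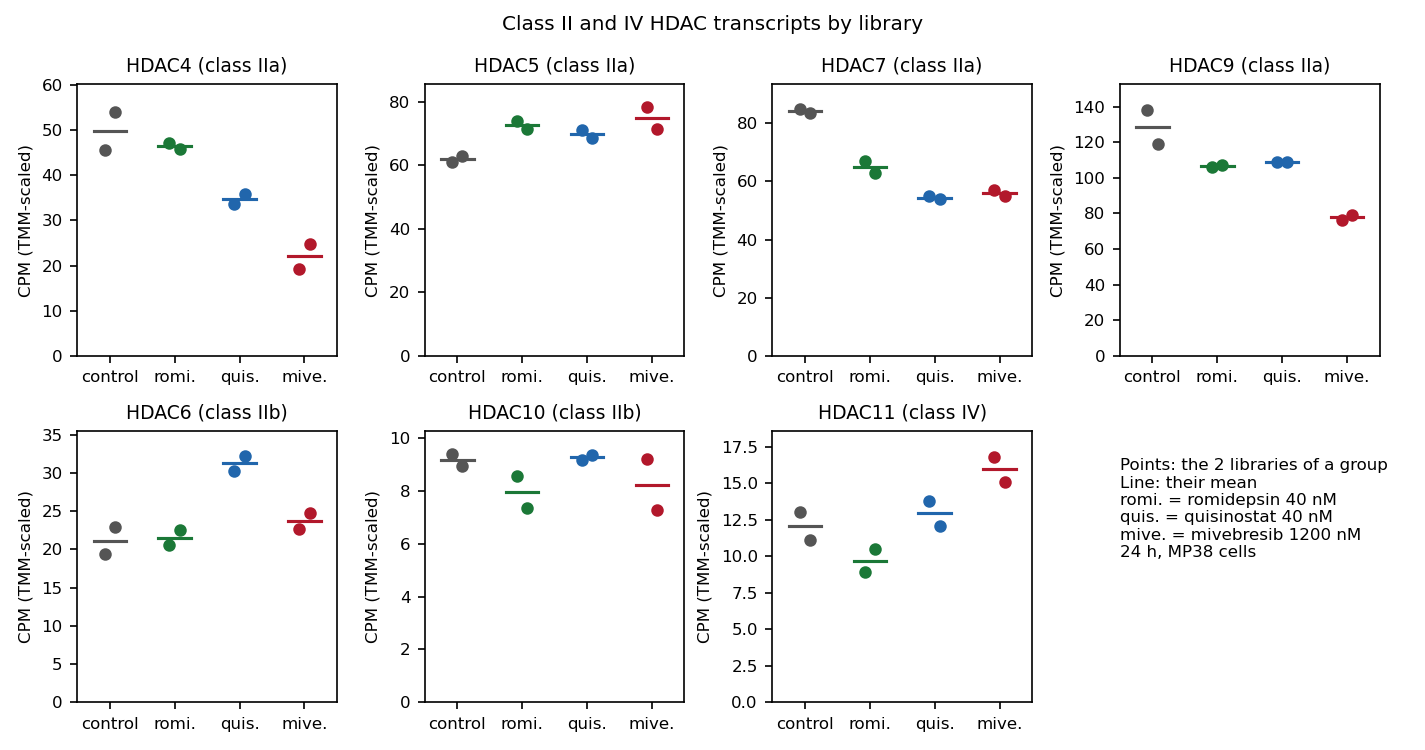
Level of each of the 7 genes (y axis, CPM on TMM-scaled library sizes) in the 2 libraries of each group (points) with their mean (line). HDAC4 was lower with quisinostat and lower still with mivebresib, HDAC7 was lower in all drug libraries, and HDAC6 was higher in the quisinostat libraries.

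Among the class IIa genes, HDAC4, HDAC7 and HDAC9 fell with mivebresib, and HDAC5 fell with no drug. HDAC4 was not called with romidepsin, and the HDAC9 calls with romidepsin and quisinostat were lost under most alternative settings. Levels are given as CPM, the reads of a gene relative to a library size scaled by TMM, a method that sets the typical gene to no change. Differences are given as log2 fold changes (log2 FC) with standard errors (SE), and a gene was called at an adjusted p below 0.05 in edgeR's quasi-likelihood test, Benjamini-Hochberg adjusted over all genes tested. Each log2 FC of the class II and class IV HDAC genes was recomputed under 16 alternatives. Of these, 8 used another tool, scaling, filter or model and 8 left out 1 library. For genes of the other lists below, only the number called per list was recomputed, and their log2 FCs come from the main fit alone. In bulk RNA, fewer cells of a type and less RNA per cell cannot be told apart.

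By drug, 2 of the 7 genes fell and none rose with romidepsin, where 31% of all tested genes were called. With quisinostat 3 fell and 1 rose, against 53.2% of all tested genes, and with mivebresib 3 fell and 2 rose, against 46.2%. The members' counts of 2, 4 and 5 of 7 stand beside these shares as a description, and nothing particular to the 7 genes is read from them. Rises were called for 15.2%, 28% and 22.2% of all tested genes and falls for 15.8%, 25.1% and 24.1%. Without 1 library the romidepsin count of 2 was 4 (control library 2), 0 (romidepsin library 2) or 1 (each of the 6 others), the quisinostat count of 4 was 2 without quisinostat library 1, and the mivebresib count stayed between 3 and 5. The romidepsin count over all tested genes likewise rose without control library 2 and fell without any other library. The quisinostat count over all tested genes also fell without quisinostat library 1. No member passed a second threshold of a log2 FC beyond 1.5, which 4.08%, 12.2% and 8.32% of all tested genes passed in the same comparisons. The median log2 FC of the 4 class IIa genes was -0.19, -0.38 and -0.66, and the medians over all tested genes were -0.012, -0.004 and 0.007. Melanocyte markers moved too. Of 6 tested, 1, 3 and 4 fell with romidepsin, quisinostat and mivebresib and none rose, with MITF at -1.39 and -1.47 and SOX10 at -0.92 and -1.93 for quisinostat and mivebresib. The romidepsin count was 4 without control library 2 and 0 without romidepsin library 1. The summed level of the 7 markers was 4193 to 5452 CPM in control, 4739 to 5027, 3563 to 4108 and 3698 to 3776 CPM in the drug groups. Of 4 tested markers of other cell types, 1 rose with romidepsin, 2 rose with quisinostat and 1 fell with mivebresib. COL1A1 led the rises with romidepsin and quisinostat (log2 FC 1.51 and 2.58). With mivebresib it was not called (-0.15, edgeR adjusted p = 0.721), and the fall was in another marker. The summed level of all 15 was 68.3 to 86 CPM in control. In the drug groups it was 82.4 to 85.6, 75.4 to 79.7 and 63.4 to 72.3 CPM. Among these markers the quisinostat and mivebresib counts were 1 and 0 with DESeq2, the quisinostat count was 1 without quisinostat library 2, and the mivebresib count was 2 without control library 1 and 0 without any 1 of the other libraries but mivebresib library 1. The part of these markers in the HDAC changes was not tested.

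HDAC4, a corepressor of MEF2 known from muscle, bone and brain, lies on chromosome 2 from 239048168 to 239401654 (GRCh38, GENCODE 29). It had 45.6 and 53.9 CPM in the control libraries, 47.1 and 45.7 with romidepsin, 33.7 and 35.9 with quisinostat, and 19.3 and 24.8 with mivebresib. The mivebresib libraries lay below all others, the quisinostat libraries lay between them and the rest, and the romidepsin libraries lay within the control range. With mivebresib HDAC4 fell by 1.17 on the log2 scale (SE 0.13, fold 0.44, edgeR adjusted p = 0.000164), the largest change of any of the 7 genes against control. With quisinostat it fell by 0.51 (SE 0.13, edgeR adjusted p = 0.00874). With romidepsin the log2 FC was -0.10, with a 95% confidence interval of -0.39 to 0.19 (edgeR adjusted p = 0.571). The quisinostat call was lost with library size alone as the scaling (-0.31, edgeR adjusted p = 0.0723) and without quisinostat library 1 (-0.46, edgeR adjusted p = 0.0654), whereas the mivebresib call held under all 16 alternatives, at -1.37 to -1.01.

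HDAC7, which is best known from thymocytes and blood vessels, lies on chromosome 12 from 47782722 to 47833132. Its levels were 84.8 and 83.6 CPM in control, 67.1 and 62.9 with romidepsin, 55 and 53.8 with quisinostat, and 57.1 and 55 with mivebresib. Every drug library lay below both control libraries, and the quisinostat and mivebresib ranges lay side by side. The log2 FC was -0.37 with romidepsin (SE 0.07, edgeR adjusted p = 0.00629), -0.63 with quisinostat (SE 0.07, edgeR adjusted p = 0.000179) and -0.59 with mivebresib (SE 0.07, edgeR adjusted p = 0.000327). The quisinostat and mivebresib calls held under all 16 alternatives. The romidepsin call was lost without romidepsin library 2 (-0.33, edgeR adjusted p = 0.0672) and in a fit of the 4 libraries alone (-0.35, edgeR adjusted p = 0.0602).

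HDAC9, the longest of these genes and the source of the truncated MEF2 repressor MITR, lies on chromosome 7 from 18086949 to 19002416. It had 138 and 119 CPM in control, 106 and 107 with romidepsin, 109 and 109 with quisinostat, and 76.3 and 79.2 with mivebresib. The groups did not overlap between control and any drug, and the 2 control libraries were further apart than those of any drug group. HDAC9 fell by 0.73 with mivebresib (SE 0.09, edgeR adjusted p = 0.000256), and this call held under all 16 alternatives. Its log2 FC was -0.27 with romidepsin (SE 0.09, edgeR adjusted p = 0.044) and -0.24 with quisinostat (SE 0.09, edgeR adjusted p = 0.0469). These calls were lost in 14 and 13 of 16 alternatives, among them each fit without 1 library other than control library 2, where the log2 FC ran from -0.28 to -0.14 and from -0.25 to -0.13. Without control library 1, which had the higher HDAC9 level, they were -0.14 (edgeR adjusted p = 0.212) and -0.13 (edgeR adjusted p = 0.182), and with library size alone the quisinostat value was -0.04.

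HDAC5, a repressor of growth genes in heart muscle, lies on chromosome 17 from 44076746 to 44123702. It had 61.1 and 63 CPM in control, 74 and 71.3 with romidepsin, 71.2 and 68.7 with quisinostat, and 78.2 and 71.4 with mivebresib. All 6 drug libraries lay above both control libraries, the romidepsin and mivebresib ranges overlapped, and the quisinostat range lay just below both. HDAC5 rose with mivebresib by a log2 FC of 0.27 (SE 0.08, edgeR adjusted p = 0.0218). With romidepsin its difference from control was 0.23 (SE 0.08, edgeR adjusted p = 0.0576) and with quisinostat 0.17 (SE 0.08, edgeR adjusted p = 0.0959). The mivebresib call was lost without mivebresib library 1 (0.20, edgeR adjusted p = 0.148), without a filter on low counts and in a fit of the 4 libraries alone. With library size alone the romidepsin and quisinostat values became 0.30 (edgeR adjusted p = 0.0184) and 0.37 (edgeR adjusted p = 0.00339), and without control library 2 the romidepsin value became 0.25 (edgeR adjusted p = 0.0451).

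In class IIb, HDAC6 rose with quisinostat and HDAC10 was not called in any comparison. HDAC6, which lies on chromosome X from 48801377 to 48824982, had 19.4 and 22.9 CPM in control, 20.6 and 22.5 with romidepsin, 30.3 and 32.2 with quisinostat, and 22.6 and 24.8 with mivebresib. Both quisinostat libraries lay above all 6 others, and the romidepsin libraries lay within the control range. The log2 FC with quisinostat was 0.56 (SE 0.11, fold 1.48, edgeR adjusted p = 0.00222), and this call held under all 16 alternatives, at 0.45 to 0.76. It was 0.03 with romidepsin (95% confidence interval -0.22 to 0.27, edgeR adjusted p = 0.869) and 0.17 with mivebresib (-0.08 to 0.41, edgeR adjusted p = 0.236). The mivebresib value was called without control library 2 (0.28, edgeR adjusted p = 0.0494).

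HDAC10 lies on chromosome 22 from 50245183 to 50251405, and 2763 of its exon bases (55.8%) are also annotated to MAPK12, a stress kinase gene on the same strand. Its counts are therefore uncertain. They were 265 and 245 in control, 249 and 213 with romidepsin, 289 and 294 with quisinostat, and 251 and 202 with mivebresib, against 523 and 430, 516 and 485, 535 and 520, and 360 and 338 for MAPK12. The log2 FC of HDAC10 lay between -0.21 and 0.01 against control (edgeR adjusted p = 0.293 to 0.943), and its 95% confidence intervals ran from -0.53 to 0.33. MAPK12 itself fell with mivebresib (log2 FC -0.44, edgeR adjusted p = 0.0107).

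HDAC11, the class IV gene, lies on chromosome 3 from 13479724 to 13506424 and was among the least abundant. It had 13 and 11.1 CPM in control, 8.9 and 10.5 with romidepsin, 13.8 and 12.1 with quisinostat, and 16.8 and 15.1 with mivebresib. The mivebresib libraries lay above all others, the romidepsin libraries lay below all others, and quisinostat overlapped control. With mivebresib the log2 FC was 0.40 (SE 0.13, edgeR adjusted p = 0.0347), with quisinostat 0.10 (edgeR adjusted p = 0.537) and with romidepsin -0.32 (edgeR adjusted p = 0.11). The mivebresib call was lost with DESeq2, without a low-count filter and in a fit of the 4 libraries alone. It was also lost without control library 2 (0.29, edgeR adjusted p = 0.116), mivebresib library 1 (0.32, edgeR adjusted p = 0.179) or mivebresib library 2 (0.48, edgeR adjusted p = 0.0614). The romidepsin value was called without control library 2 (-0.43, edgeR adjusted p = 0.034).

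**Figure D2:**
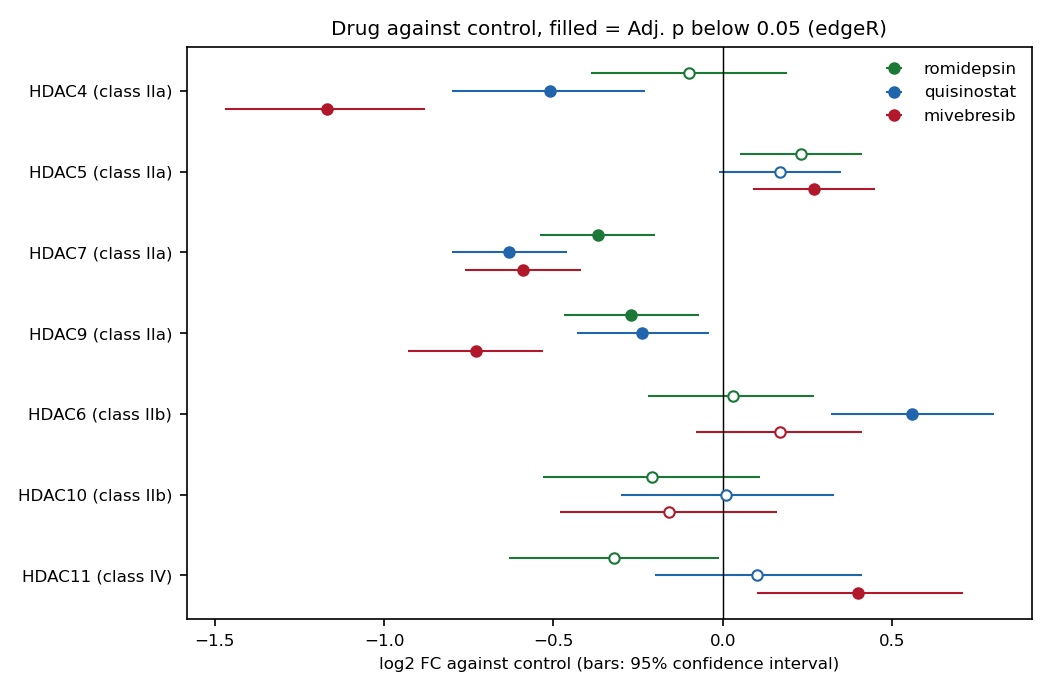
Log2 FC of the 7 genes against control (x axis) for romidepsin, quisinostat and mivebresib (colors), with 95% confidence intervals and filled points where the edgeR adjusted p was below 0.05. HDAC4 with mivebresib lies furthest left at -1.17, and HDAC6 with quisinostat lies furthest right at 0.56.

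The drugs were then compared directly. The HDAC inhibitors, both at 40 nM, differed in 4 of the 7 genes, where 35.6% of all tested genes differed (21% higher and 14.6% lower with quisinostat). None of the 4 passed a log2 FC beyond 1.5, which 5.59% of all tested genes did. With quisinostat HDAC6 was higher than with romidepsin (log2 FC 0.54, SE 0.10, edgeR adjusted p = 0.00521), as was HDAC11 (0.42, SE 0.13, edgeR adjusted p = 0.04). HDAC4 was lower (-0.41, SE 0.13, edgeR adjusted p = 0.0338), as was HDAC7 (-0.26, SE 0.07, edgeR adjusted p = 0.0271). HDAC5 and HDAC9 were not called, with differences of -0.06 (95% confidence interval -0.23 to 0.12) and 0.04 (-0.16 to 0.23). The HDAC6 call held under 14 of 16 alternatives and was lost without romidepsin library 1 (0.47, edgeR adjusted p = 0.0543) or quisinostat library 2 (0.46, edgeR adjusted p = 0.0563). The HDAC4 and HDAC7 calls were lost without any 1 of the 4 romidepsin and quisinostat libraries, at -0.50 to -0.39 and -0.31 to -0.21, and with library size alone, at -0.29 and -0.13. The HDAC11 call was lost without any 1 library of the 3 drugs, at 0.30 to 0.54. The count of 4 was 0 to 4 without 1 library.

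Mivebresib was used at another concentration than the HDAC inhibitors, so its differences from them are differences between these treatments. It differed from romidepsin in 4 of the 7 genes, 1 higher and 3 lower, where 48.9% of all tested genes differed (23.7% higher and 25.2% lower). It differed from quisinostat in 3, all lower, where 57.7% differed (26.2% higher and 31.5% lower). None of the 7 differed by a log2 FC beyond 1.5, against 9.22% and 14.3% of all tested genes. HDAC4 was lower with mivebresib than with romidepsin (log2 FC -1.07, SE 0.13, edgeR adjusted p = 0.000245) and quisinostat (-0.66, SE 0.13, edgeR adjusted p = 0.00256). HDAC9 was lower as well (-0.45, edgeR adjusted p = 0.00285, and -0.49, edgeR adjusted p = 0.00146). These HDAC4 and HDAC9 calls held under all 16 alternatives, as did a higher HDAC11 than with romidepsin (0.72, SE 0.13, edgeR adjusted p = 0.00238). HDAC6 was lower with mivebresib than with quisinostat (-0.40, SE 0.10, edgeR adjusted p = 0.0108), a call that was lost without quisinostat library 2 (-0.34, edgeR adjusted p = 0.0807) or mivebresib library 1 (-0.33, edgeR adjusted p = 0.0819). HDAC7 was lower with mivebresib than with romidepsin (-0.21, edgeR adjusted p = 0.041), a call that was lost in 8 of 16 alternatives, among them without any 1 library of the 3 drugs (-0.26 to -0.17). HDAC7 differed by 0.04 between mivebresib and quisinostat (95% confidence interval -0.13 to 0.21).

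To compare levels between genes, CPM was divided by the length of each gene's merged exons (GENCODE 29) to give CPM per kb. In control cells HDAC7 (8.48 ± 0.0904 CPM per kb, SD, n = 2), HDAC5 (8.15 ± 0.176) and HDAC9 (7.64 ± 0.776) were the most abundant, and the HDAC5 and HDAC9 libraries overlapped. HDAC4 followed at 3.72 ± 0.436. HDAC11 (2.28 ± 0.264), HDAC6 (2 ± 0.228) and HDAC10 (1.85 ± 0.0626) came last, each overlapping its neighbour in the order. The HDAC10 level, and the shares below that include it, carry the uncertainty from exon bases shared with MAPK12. With every drug HDAC5 had the highest level per kb, at 9.54 ± 0.253 with romidepsin, 9.18 ± 0.239 with quisinostat and 9.82 ± 0.632 with mivebresib. HDAC4 went from rank 4 in control to rank 7 with mivebresib, at 1.65 ± 0.291, where its libraries overlapped those of HDAC10. Dividing by the longest transcript instead put HDAC9 first in control (13.2 ± 1.35), overlapping HDAC7 (13.1 ± 0.14), and left HDAC5 first with every drug. By that length the HDAC6 and HDAC10 libraries did not overlap in control.

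As shares of the summed CPM per kb of the 7 genes, class IIa made up 82 and 82.1% in the control libraries, 83.1 and 82% with romidepsin, 76.6 and 76.6% with quisinostat, and 75.4 and 76.3% with mivebresib. The quisinostat and mivebresib shares lay below all control and romidepsin shares. HDAC5 alone rose from 23.3 and 24.4% in control to 35.2 and 33.3% with mivebresib, and HDAC4 went from 9.93 and 11.9% to 4.95 and 6.6%. HDAC6 made up 5.34 and 6.37% in control and 9.16 and 9.85% with quisinostat. HDAC11 made up 7.18 and 6.19% in control and 10.9 and 10.1% with mivebresib. Since these are shares of a sum, a fall in one gene raises the others.

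**Figure D3:**
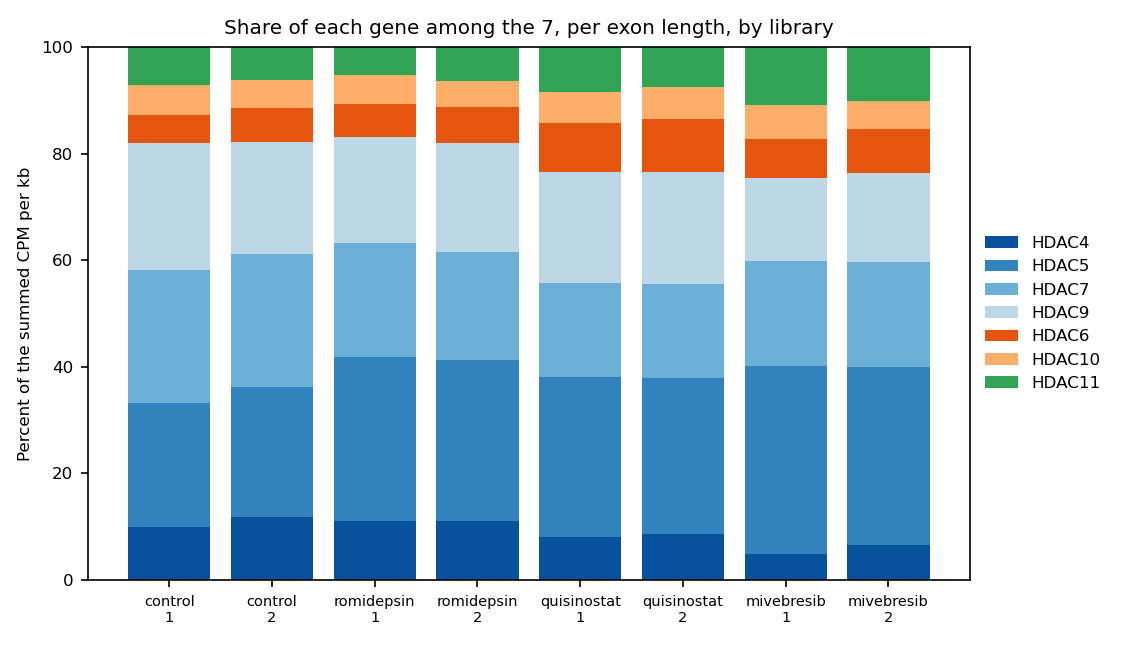
Share of each of the 7 genes in their summed CPM per kb (y axis, percent) in each of the 8 libraries (bars). Class IIa is in blue, class IIb in orange and class IV in green, and the blue part ends at 82 and 82.1% in control and at 75.4 and 76.3% with mivebresib.

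The genes that work with class IIa HDACs were counted next, from lists drawn up from general knowledge. Of the 4 MEF2 factor genes, 0, 1 and 3 were called with romidepsin, quisinostat and mivebresib. Over all tested genes 31%, 53.2% and 46.2% were called. MEF2C moved in opposite directions with quisinostat and mivebresib. It averaged 15.6 ± 0.145 CPM in control, 17.9 ± 0.549 with romidepsin, 38.9 ± 2.05 with quisinostat and 7.78 ± 0.651 with mivebresib (SD, n = 2). Its log2 FC was 1.31 with quisinostat (SE 0.09, edgeR adjusted p = 1.11e-05), -1.01 with mivebresib (SE 0.10, edgeR adjusted p = 9.03e-05) and -2.32 for mivebresib against quisinostat (SE 0.10, edgeR adjusted p = 1.11e-06). MEF2A, at 117 to 136 CPM the most abundant, rose by a log2 FC of 0.21 with mivebresib (edgeR adjusted p = 0.0414). With romidepsin its log2 FC was 0.19 (edgeR adjusted p = 0.0762). Mivebresib against romidepsin gave 0.02 (edgeR adjusted p = 0.844). MEF2D was not called with any drug, and its log2 FC with romidepsin was 0.22 (edgeR adjusted p = 0.0638). MEF2B had 0 to 19 counts per library. It was called with mivebresib (log2 FC 2.37, SE 0.84, edgeR adjusted p = 0.0454), from 3 and 4 counts in control to 19 and 18. MEF2B was abundant enough to be tested only through its mivebresib libraries. This rise, part of the mivebresib count of 3, is therefore not independent of that filter. No MEF2 factor was called with romidepsin by edgeR, DESeq2 or limma-voom, 2 had an unadjusted p under 0.05, and 2 were called with library size alone. Without control library 1 the romidepsin count was 1, and without control library 2 the quisinostat count was 2. The mivebresib count of 3 fell to 1 without control library 2 or without any 1 library of romidepsin or mivebresib.

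All 7 genes for 14-3-3 proteins fell with quisinostat, where 25.1% of all tested genes fell. Their log2 FC ran from -0.78 (SFN, the epithelial member, SE 0.25) to -0.31 (YWHAB, SE 0.08), with a median of -0.59 against -0.004 for all tested genes. YWHAE went from 495 ± 32.5 to 306 ± 17.9 CPM (SD, n = 2). None was called with romidepsin by edgeR, DESeq2 or limma-voom (3 had an unadjusted p under 0.05), and with mivebresib SFN alone was called, at 1.04 (SE 0.22, edgeR adjusted p = 0.00449). Of all tested genes 31% were called with romidepsin and 46.2% with mivebresib. Over all tested genes 26.2% were higher with mivebresib than with quisinostat, and 14.6% were lower with quisinostat than with romidepsin. All 7 genes for 14-3-3 proteins were higher with mivebresib than with quisinostat, with a median of 0.71 against -0.033 for all tested genes. With quisinostat 4 were lower than with romidepsin, or 2 without romidepsin library 2 or quisinostat library 2. The quisinostat count was 4 of 7 with library size alone and 3 of 7 without quisinostat library 2, the romidepsin count was 4 without control library 2, and the mivebresib count was 3 without control library 1.

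**Figure D4:**
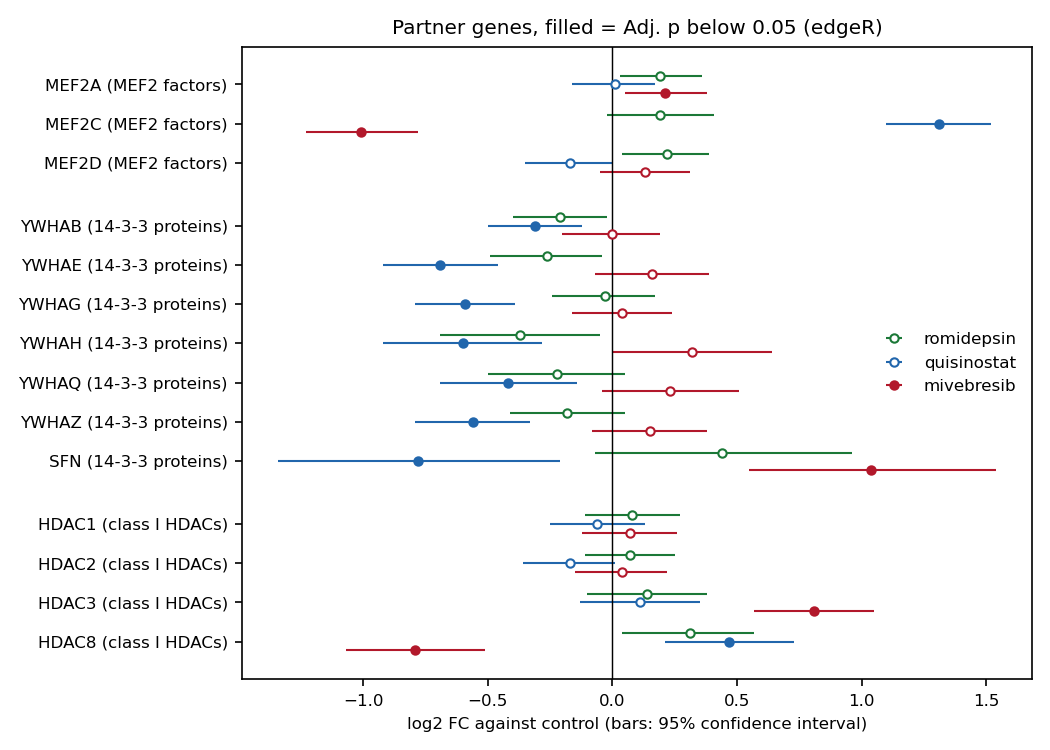
Log2 FC against control (x axis, 95% confidence intervals) for MEF2 factors, 14-3-3 proteins and class I HDACs by drug (colors), filled where the edgeR adjusted p was below 0.05. MEF2B is left out for its low counts. MEF2C lies at 1.31 with quisinostat and -1.01 with mivebresib, and all 7 genes of 14-3-3 proteins lie below 0 with quisinostat.

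Of 15 tested kinase genes whose products can phosphorylate class IIa HDACs, 4 rose and none fell with romidepsin, 6 rose and 4 fell with quisinostat, and 4 rose and 2 fell with mivebresib. Over all tested genes the called share was 31%, 53.2% and 46.2%, with rises in 15.2%, 28% and 22.2%. CAMK4, a calcium/calmodulin-dependent kinase of neurons and lymphocytes, went from 2.97 ± 0.649 CPM in control to 6.69 ± 0.329, 11.3 ± 1.12 and 4.48 ± 0.489 with romidepsin, quisinostat and mivebresib. Its log2 FC was 1.17, 1.93 and 0.59 (edgeR adjusted p = 0.002, 4.02e-05 and 0.0288). CAMK2D had 0.71, 1.62 and 0.16, and CAMK2B had 0.17, 1.14 and -0.29 in the same order. CAMK2D was called with both HDAC inhibitors and CAMK2B with quisinostat. CAMK1D was called with quisinostat (1.48) and mivebresib (-0.78) and not with romidepsin (edgeR adjusted p = 0.988). The romidepsin count of 4 was 2 and 1 without romidepsin library 1 and 2.

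Of 13 tested MEF2 target genes, 8 rose and none fell with romidepsin, where 15.2% of all tested genes rose. With quisinostat 7 rose and 1 fell, and with mivebresib 6 rose and 4 fell, where 28% and 22.2% of all tested genes rose. PPARGC1A and SLC2A4 led the list with both HDAC inhibitors, and KLF2 led it with mivebresib. PPARGC1A, a coactivator of mitochondrial genes, had 1 and 2 counts in control, 45 and 51 with romidepsin, 138 and 130 with quisinostat, and 4 and 1 with mivebresib. It was abundant enough to be tested only through its HDAC inhibitor libraries. Its rises, among the 8 and 7 counted above, are therefore not independent of that filter. SLC2A4, the insulin-responsive glucose transporter, had log2 FCs of 2.10, 3.13 and 1.22 (edgeR adjusted p = 0.000594, 1.38e-05 and 0.00632), from 11 and 14 counts in control. DES, the muscle intermediate filament desmin, was called with quisinostat alone among the drugs (log2 FC 2.05, edgeR adjusted p = 0.00111), and it was higher there than with romidepsin (1.23, edgeR adjusted p = 0.0151). KLF2, a zinc finger factor of endothelium and T cells, was called with mivebresib alone (2.23, SE 0.16, edgeR adjusted p = 1.57e-05), and it was higher with mivebresib than with romidepsin (2.49) and quisinostat (2.41). Without romidepsin library 1 the romidepsin count was 4.

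For class IIb, 15 substrates and partners of HDAC6 were counted. With romidepsin 1 rose and 5 fell, with quisinostat 3 rose and 8 fell, and with mivebresib 7 rose and 4 fell. The 6, 11 and 11 of 15 called stand against 31%, 53.2% and 46.2% of all tested genes. TUBA4A, an alpha-tubulin, averaged 13 ± 0.888 CPM in control, 41 ± 1.42 with romidepsin, 49.5 ± 2.62 with quisinostat and 12.4 ± 1.25 with mivebresib. Its log2 FC was 1.65 and 1.93 with the HDAC inhibitors (edgeR adjusted p = 6.08e-05 and 3.38e-06) and -0.07 with mivebresib (edgeR adjusted p = 0.615). The alpha-tubulins TUBA1B (-0.55, -1.14 and -0.73) and TUBA1C (-0.74, -1.05 and -0.27) fell with romidepsin, quisinostat and mivebresib, although near-identical tubulin genes can share reads. SQSTM1, an autophagy receptor for ubiquitinated cargo, fell with romidepsin (-0.33) and quisinostat (-0.87) and rose with mivebresib (1.23, edgeR adjusted p = 3.28e-05). The romidepsin count of 6 was 2 without romidepsin library 1 and 3 without romidepsin library 2 or either quisinostat library.

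Of 12 polyamine genes, the pathway of HDAC10 substrates, 3 rose and 1 fell with romidepsin, 3 rose and 4 fell with quisinostat, and 6 rose and 1 fell with mivebresib. The 4, 7 and 7 of 12 called stand against the same 31%, 53.2% and 46.2% of all tested genes. SAT1, which acetylates spermidine and spermine, averaged 87.5 ± 11.3 CPM in control and 303 ± 24.6 with mivebresib (log2 FC 1.79, SE 0.11, edgeR adjusted p = 9.12e-06). It was not called with romidepsin (0.29, edgeR adjusted p = 0.0766) or quisinostat (-0.20, edgeR adjusted p = 0.153). SMOX, the spermine oxidase, rose with all 3 drugs (0.68, 1.27 and 0.72, edgeR adjusted p = 0.0316, 0.000679 and 0.0166), and PAOX, the acetylpolyamine oxidase, rose with quisinostat (1.10, edgeR adjusted p = 0.00849). The mivebresib count of 7 was 2 and 4 without mivebresib library 1 and 2, and the quisinostat count of 7 was 3 without quisinostat library 2. The romidepsin count of 4 was 0 and 1 without romidepsin library 1 and 2, and 2 without any 1 library of quisinostat or mivebresib.

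The class I HDAC genes were set beside these. The called shares of all tested genes were again 31%, 53.2% and 46.2% with romidepsin, quisinostat and mivebresib. HDAC1 and HDAC2, at 135 to 159 and 141 to 175 CPM, were not called with any drug, and their log2 FC lay between -0.17 and 0.08. HDAC3 had 71.4 and 57.2 CPM in control and 111 and 115 with mivebresib (log2 FC 0.81, SE 0.11, edgeR adjusted p = 0.000374). HDAC8 rose with quisinostat (0.47, edgeR adjusted p = 0.00809) and fell with mivebresib (-0.79, edgeR adjusted p = 0.000951). With romidepsin none of the 4 was called by edgeR, DESeq2 or limma-voom (1 had an unadjusted p under 0.05). With library size alone 1 was called, and leaving out control library 1 also raised the romidepsin count. With quisinostat 2 were called without control library 1. Of the 7 sirtuin genes, the class III deacetylases, none rose and 1 fell with romidepsin, 1 rose and 1 fell with quisinostat, and 5 rose and 1 fell with mivebresib, where 22.2% of all tested genes rose and 24.1% fell. SIRT4 had a log2 FC of 1.07 with mivebresib (SE 0.23, edgeR adjusted p = 0.00551). The romidepsin count was 0 with DESeq2 and without any 1 library of the HDAC inhibitors, and 2 without control library 2. The quisinostat count was 1 without control library 1 or quisinostat library 2.

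Over the 8 libraries, the genes whose log2 CPM followed each member most closely, among 12945 genes, were SH3PXD2A for HDAC4 (Pearson r = 0.993), TOE1 for HDAC7 (0.993), FOXD3 for HDAC9 (0.989), ZNF77 for HDAC5 (0.959), MUT for HDAC6 (0.981), HYAL3 for HDAC10 (0.939) and DALRD3 for HDAC11 (0.983). The next in order were COLGALT2 and TXNDC15 for HDAC4, SPC24 and LMNB2 for HDAC7, MUS81 and POLR3D for HDAC9, NUB1 and NDFIP2 for HDAC5, SLC22A4 and GPC3 for HDAC6, ZNF649 and MACROD1 for HDAC10, and FCF1 and ADSSL1 for HDAC11. Among the members, HDAC4 and HDAC9 were most alike (r = 0.87), followed by HDAC4 and HDAC7 (0.70) and HDAC7 and HDAC9 (0.69). The pair furthest in the opposite direction was HDAC4 and HDAC11 (-0.85). HDAC5 was at -0.66 with HDAC4, -0.75 with HDAC7 and -0.81 with HDAC9, and HDAC6 was at -0.71 with HDAC7. The 8 points share 4 treatments, so these values describe the order of the groups and carry no test.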

How the data were processed

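RNA was sequenced from 8 wells of MP38 cells (24 h treatment, 2 wells per group), and groups and replicate numbers were taken from the labels. The authors deposited unnormalized read counts for 35238 gene symbols, made with BioJupies. The submitters' processing notes name the build hg38, whereas the aligner, the annotation and whether counting used strand are not given in the sources used here, so genes sharing exons are uncertain. The authors' 2 normalized tables were not used.

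All 8 libraries entered a single quasi-likelihood model in edgeR (version 4.0.16, R 4.3.3), after low genes had been removed with filterByExpr and library sizes scaled by TMM. P-values were adjusted by Benjamini-Hochberg over 15085 genes, with a threshold of 0.05. The biological coefficient of variation was 0.0938. log2 CPM used a prior count of 2. The scripts were tested on simulated data. Alternatives used DESeq2 1.42.0, limma-voom (limma 3.58.1), other scalings and filters, the replicate number as a block, and each library left out, where the lone library of a group is assumed to vary like the others. Lengths came from GENCODE 29, with the longest transcript as an alternative chosen after seeing the data, as were the list counts under the alternatives. At most 4 genes per list were named, those with the largest log2 FC among genes called beyond 1 in any drug whose average log2 CPM was 0 or more, plus the 3 genes most correlated with each member. MEF2A, MEF2B, MEF2D, YWHAE and YWHAB were named outside this rule, after their values were seen.

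Total counts were of about equal size, 2 libraries per group limit precision, and genes of few counts are also limited by counting. Membership follows enzyme class and the lists general knowledge, but both were chosen with earlier results of these data known. The counts of corepressor genes are not reported here.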

Additional observations from a re-analysis of the deposited data

How the results depend on the processing

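Leaving out 1 library at a time, the number of the 7 genes past the threshold ran from 0 to 4 with romidepsin, 2 to 4 with quisinostat and 3 to 5 with mivebresib, and from 0 to 4, 3 to 4 and 2 to 4 for quisinostat against romidepsin, mivebresib against romidepsin and mivebresib against quisinostat. For romidepsin the count of 2 became 1 with DESeq2 and without a low-count filter, and 0 in a fit of the 4 libraries alone. For mivebresib the count of 5 became 3 without the filter and in a fit of the 4 libraries alone. For quisinostat against romidepsin the count of 4 became 2 with library size alone and with upper-quartile factors. At an adjusted p below 0.01 the counts were 1 for romidepsin, 3 for mivebresib and 1 for quisinostat against romidepsin, and with a log2 FC beyond 1.5 all 6 counts were 0. Unfiltered fits test 22876 genes. Of all genes, 4-library fits called fewer against control and more between drugs. No cause was tested. The romidepsin count over all genes rose without control library 2. Over all genes, the romidepsin count of 4670 became 2543 in the fit of 4 libraries alone and 2186 and 2607 without romidepsin library 1 and 2, and the count for quisinostat against romidepsin of 5367 became 2815 to 3009 without any 1 of its 4 libraries.

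No paired design was assumed, since libraries of different groups shared only a number: their deviations from the group means correlated at -0.16 to 0.16. With the replicate number as a block the romidepsin count was 1, because HDAC9 had an edgeR adjusted p of 0.0577, and HDAC9 was also lost with quisinostat (edgeR adjusted p = 0.061). The block changed no other call of the 7 genes.

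Of 672 values of the members' log2 FC under the alternatives, 568 kept direction and side of the threshold, 72 lost and 12 gained a call, and 20 changed sign, none of them of a called value. Leaving out 1 library, HDAC4 and HDAC6 with romidepsin ran from -0.19 to 0.02 (0.02 without control library 2) and from -0.06 to 0.15 (-0.06 without control library 1, -0.04 without romidepsin library 2). HDAC10 and HDAC11 with quisinostat ran from -0.03 to 0.05 (-0.03 without control library 2, -0.01 without quisinostat library 2) and from -0.02 to 0.22 (-0.02 without control library 2), and HDAC10 with mivebresib ran from -0.34 to 0.0016 (0.0016 without mivebresib library 2). HDAC9 for quisinostat against romidepsin ran from -0.0042 to 0.04 (-0.0042 without quisinostat library 2). HDAC5 and HDAC10 for mivebresib against romidepsin ran from -0.03 to 0.11 (-0.03 without mivebresib library 1) and from -0.13 to 0.21 (-0.13 without mivebresib library 1, -0.06 without romidepsin library 2). Among the other settings, HDAC10 with quisinostat was -0.00068 with DESeq2 and -0.0063 unfiltered, and HDAC9 for quisinostat against romidepsin was -0.0036 in the fit of 4 libraries alone. With library size alone HDAC5 was 0.07, -0.01 and -0.08 for quisinostat against romidepsin, mivebresib against romidepsin and mivebresib against quisinostat, HDAC10 was -0.0039 for mivebresib against romidepsin, and HDAC7 was -0.14 for mivebresib against quisinostat, or -0.04 with upper-quartile factors.

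For quisinostat, library size alone moved the median log2 FC of all genes against control from -0.004 to 0.196, and the share of calls that were higher from 52.7 to 72.4% (65.4% with upper-quartile factors). For romidepsin that share went from 49.1 to 62.1% (63.4% with upper-quartile factors), for quisinostat against romidepsin from 59 to 76.8%, and for mivebresib against quisinostat from 45.4 to 30.1%. The falls of HDAC4, HDAC7 and HDAC9 and the rise of HDAC6 kept their direction under both other scalings, but HDAC9 lost its calls with romidepsin and quisinostat under both (-0.20 and -0.04 with library size alone, -0.19 and -0.11 with upper-quartile factors), and HDAC4 lost its call with quisinostat under library size alone. The longest transcript as length moved 33 of 40 shares by more than 1 SD.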
